A study of Mus musculus with 4 samples.

Results

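The transcripts described here are 116 noncoding RNA genes of the embryonic mouse cortex that are annotated as antisense to a gene or as arising from a bidirectional promoter. They were chosen by measured level from the rows that both deposited tables list with the annotation class antisense_RNA (98 genes) or bidirectional_promoter_lncRNA (18 genes), on autosomes, with a mean of at least 3 CPM (reads of a gene per 1000 reads of its library, times 1000) over all 4 libraries. The imprinted antisense transcripts Kcnq1ot1, Airn and Nespas were left out by name. At any level the same classes held 903 autosomal genes in both tables, and the tables shared 19844 genes of all classes. Because the mean level chose them, the levels below are a description. The difference between the groups was not used to choose them, but they were chosen with earlier results of these data known. Just inside the limit lay Gm12120 at 3.13, D130020L05Rik at 3.04 and Gm26801 at 3.01 CPM. Just outside lay Gm16008 at 2.99, 9130221H12Rik at 2.98 and D030047H15Rik at 2.96 CPM.

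The series compared cortex of wild-type mice with cortex of mice in which H2A.Z.2, a histone variant encoded by H2afv, was knocked out conditionally (cKO), both on the C57BL/6 background at E16.5. There were 2 wild-type libraries (replicates 1 and 4) and 2 libraries labelled cKO (replicates 1 and 2), made from total RNA. The allele that was deleted, the Cre driver and the cells it acts in, the sex of the embryos and whether a library came from 1 embryo or several were not given in the sources used here. No label ties a library to a litter of its own. The p-values below therefore weigh differences only against the spread among 4 libraries, part of which may be technical.

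Antisense transcripts are read from the strand opposite to a gene and can cover its body, its end or its start. Many mammalian promoters fire in both directions, and some of the upstream products are stable, spliced long noncoding RNAs that share a nucleosome-depleted stretch with the coding gene. H2A.Z-containing nucleosomes flank such stretches at active promoters. In the forebrain, several developmental transcription factor genes have long antisense partners, of which Dlx6os1, also called Evf2, is the best studied.

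Of the 116 genes, 93 overlapped a coding gene on the opposite strand, 18 lay apart from it and divergent, 3 were convergent and 2 ran on the same strand. The nearest coding row of the tables by position is called the partner here. For 44 genes the starts of RNA and partner were on opposite strands and within 1 kb of each other, an arrangement called head to head here, and in 12 of these they were within 100 bp. Of these 44, 28 carried the class antisense_RNA and 16 the bidirectional class. Another 66 overlapped the partner with starts over 1 kb apart, and the median distance between starts in that set was 20648.5 bp. A coding gene that an RNA overlaps was taken as partner before one that only starts nearby. Brip1os counts among these 66 by its overlap with Ints2. Its start also lies close to that of Brip1, on the opposite strand. Other such cases were not counted. In the plot of start distances the bidirectional class sits at the short end and the antisense class spans the whole range.

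**Figure D1:**
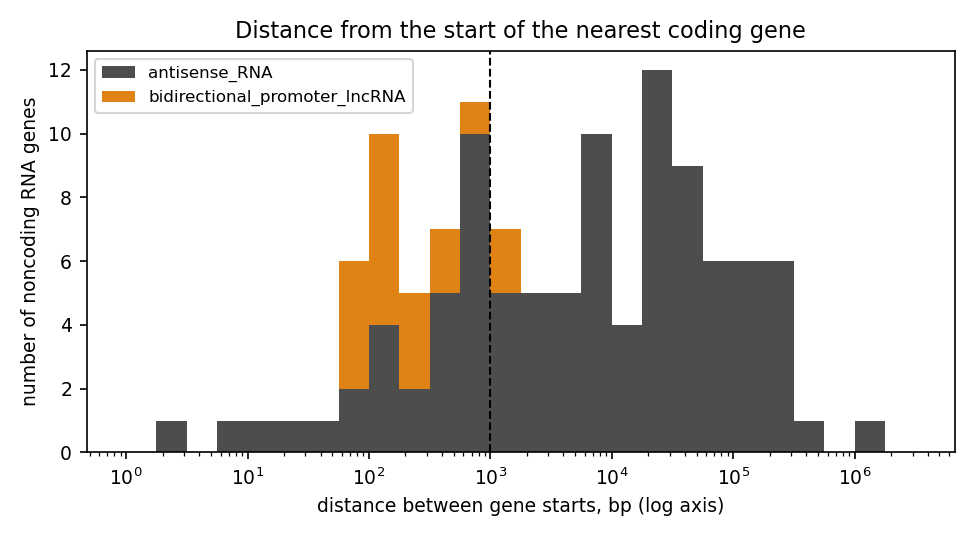
Histogram of the distance in bp (log axis) between the annotated start of each noncoding RNA gene and that of its nearest coding gene, stacked by annotation class, with a dashed line at 1000 bp. The head-to-head genes lie left of the line and 45 genes lie more than 10 kb from their partner's start.

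RefSeq promoter windows (250 bases before to 50 after a start, GRCm38.p6) could be matched by symbol to 53 of the 116, and 36 of these began within 100 bp of the start in the tables. The 17 head-to-head genes among them had a median GC content of 68.7% and a median observed-to-expected CpG ratio of 0.879. The 19 other genes had 57.7% and 0.528, and all 32851 windows of the table had 52.7% and 0.384. Where the partner had a window too, the windows shared bases in 10 of 15 head-to-head pairs and in 2 of 18 others. The motif GGGCGG, searched on both strands, was in 15 of these 17 windows, in 9 of the other 19 and in 35.7% of all windows. The motif TATAAA was in 0 of the 17, in 2 of the 19 and in 13.6% of all windows, and CCAAT was in 5, in 6 and in 37.4%. A match is a description of letters, and none of the 3 motifs was tested against expression. The windows of 4 genes show the contrast, with every CG dinucleotide in capitals. A930024E05Rik (chr5:122989104-122989403, plus strand) and F730043M19Rik (chr12:33147537-33147836, minus strand) are head to head with Kdm2b and Atxn7l1, A830082K12Rik (chr13:78197767-78198066, plus strand) starts inside Nr2f1, and 4833422C13Rik (chr13:91741823-91742122, minus strand) starts beyond the far end of Ssbp2 and runs back into it.
A930024E05Rik: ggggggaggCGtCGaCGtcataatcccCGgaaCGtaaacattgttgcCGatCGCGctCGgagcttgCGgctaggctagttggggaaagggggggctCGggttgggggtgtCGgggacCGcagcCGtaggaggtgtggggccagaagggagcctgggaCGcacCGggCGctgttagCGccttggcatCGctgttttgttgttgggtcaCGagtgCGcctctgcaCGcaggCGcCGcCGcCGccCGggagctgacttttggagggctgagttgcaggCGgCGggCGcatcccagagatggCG
F730043M19Rik: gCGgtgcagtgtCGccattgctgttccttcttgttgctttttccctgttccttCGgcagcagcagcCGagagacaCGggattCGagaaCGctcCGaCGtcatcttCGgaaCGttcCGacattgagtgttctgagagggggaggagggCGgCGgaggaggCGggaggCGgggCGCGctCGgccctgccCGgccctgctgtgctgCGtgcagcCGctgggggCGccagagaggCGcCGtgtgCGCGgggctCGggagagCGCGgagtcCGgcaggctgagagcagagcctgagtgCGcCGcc
A830082K12Rik: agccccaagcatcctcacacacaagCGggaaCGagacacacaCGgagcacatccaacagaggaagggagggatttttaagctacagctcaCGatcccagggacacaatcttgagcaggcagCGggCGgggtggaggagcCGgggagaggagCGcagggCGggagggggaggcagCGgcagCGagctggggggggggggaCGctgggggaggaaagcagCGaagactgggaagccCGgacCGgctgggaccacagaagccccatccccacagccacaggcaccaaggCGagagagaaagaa
4833422C13Rik: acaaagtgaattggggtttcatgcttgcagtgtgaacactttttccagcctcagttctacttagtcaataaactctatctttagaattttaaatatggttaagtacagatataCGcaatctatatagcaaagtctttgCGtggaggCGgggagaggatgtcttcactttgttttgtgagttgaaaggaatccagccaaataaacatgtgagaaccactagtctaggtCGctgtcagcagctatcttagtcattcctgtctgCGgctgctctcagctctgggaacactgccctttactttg
The first pair held 31 and 33 CG dinucleotides and shared 246 and 199 bases with the windows of their partners. The window of A830082K12Rik held 16 and that of 4833422C13Rik held 5, and neither shared bases with the partner's window.

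The libraries held 16625181 to 17940659 reads in genes. Emx1, a homeobox gene that marks dorsal cortex, was detected in every library, at 61.3 to 105 CPM, the highest being wild type replicate 4. A sum over 10 dorsal cortex markers peaked elsewhere, at 3948 CPM in cKO replicate 2. The other libraries had sums from 2716 to 3143 CPM, with wild type replicate 4 at 2941 CPM. Wild type replicate 4 stood apart: 10 markers of dividing cells summed to 1016 CPM there against 397 to 476 elsewhere, and 3 genes that report ribosomal RNA summed to 3762 CPM against 346 to 490. Here and below, values are given for wild type replicates 1 and 4 and then for cKO replicates 1 and 2. Ventral telencephalon and interneuron markers summed to 809 and 1307 (wild type) against 1054 and 644 CPM (cKO). Choroid plexus markers (7 of 8 listed in both tables, 1 at 0 in wild type replicate 4) summed to 501 CPM in cKO replicate 1 and to 11.3 to 54.7 CPM elsewhere. Thalamic and hypothalamic markers (8 of 10 listed, 3 at 0 in cKO replicate 2) summed to 16.55 to 77.4 CPM, microglial markers to 36.8 to 54.0 CPM, and erythroid markers (4 of 5 listed) to 101 CPM in wild type replicate 4 and 18.5 to 24.2 CPM elsewhere. The part of these cells in the results below was not tested. The targeted gene H2afv was at 136 and 222 CPM (wild type) against 128 and 127 CPM (cKO). The libraries labelled cKO lay just below wild type replicate 1, so the groups are called by their labels throughout. Counts over the whole gene need not show a deletion of part of it.

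Whether reads were assigned by strand was not given in the sources used here. Among autosomal genes of these classes in GENCODE M21, 348 of 1375 with no exonic base shared with a coding exon were in both tables, or 25.3%. Of 112 genes with over 90% of their exonic bases shared, 1 was in both tables, or 0.893%. Among the 116, 41 shared no exonic base with a coding exon, 70 shared up to 50% and 5 shared 50% to 90%. Unspliced RNA of the partner also covers an antisense exon that lies in an intron of the partner. With the strand setting unknown, reads of a noncoding RNA and its partner cannot be told apart in the 93 overlapping pairs.

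Most of the 116 were low in abundance. Their mean levels ran from 3.01 to 74.5 CPM with a median of 5.85, 13 were above 20 CPM, and 46 were below 5 CPM. Together they took 0.112% to 0.121% of the reads of a library. A single gene had between 15 and 1456 reads in a library. Per kilobase of annotated exon the levels ran from 0.535 to 60.6 CPM, with a median of 3.07. Per kilobase, 30 of the 116 were at or above their partner, and the median gene was at 33.8% of its partner. That median was 60.3% for the 41 genes that share no exonic base with a coding exon. It was 17.6% for 29 genes with up to 10% shared and 28.1% for 46 genes with over 10% shared.

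The most abundant was E130307A14Rik, which overlaps Traf3ip2, an adaptor gene of interleukin signalling. It was at 78.4 and 65.5 (wild type) against 81.3 and 72.8 CPM (cKO). The groups overlapped. Brip1os, antisense to the Integrator subunit gene Ints2, was at 49.0 and 55.6 (wild type) against 41.6 and 51.0 CPM (cKO). Brip1os starts at 86201370 on the plus strand of chromosome 11, close to Brip1, which starts at 86201193 on the minus strand. Brip1 was at 3.52 and 4.25 against 3.18 and 2.74 CPM. Gm11266 lies in Nfib, a gliogenic and neuronal transcription factor gene, and was at 44.6 and 36.8 against 31.2 and 43.9 CPM. For Brip1os and Gm11266 1 cKO library lay between the wild-type libraries. For Gm11266 the log2 fold change was -0.12 (SE 0.21). 1600020E01Rik starts 74 bp from Pcbp1, an RNA-binding protein gene, and was at 34.7 and 31.6 (wild type) against 35.1 and 40.4 CPM (cKO), both cKO libraries being above both wild-type ones. 2810013P06Rik, head to head with the chromatin regulator gene Ankrd11, was at 30.2 and 29.9 against 27.9 and 35.5 CPM. Gm16536, inside the beta-secretase gene Bace1, was at 28.6 and 24.6 against 26.03 and 28.3 CPM. These last 2 had overlapping groups. A930024E05Rik, head to head with the histone demethylase gene Kdm2b, was at 23.2 and 22.3 against 18.4 and 23.8 CPM, and per kilobase it stood at 107% of Kdm2b. Kdm2b itself was at 99.1 and 141 against 123 and 106 CPM, and both genes overlapped between the groups.

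A wider gap between wild type replicate 4 and the other libraries was seen in 3 more of the 12 most abundant. AC121965.1, which overlaps the start of the pre-mRNA cleavage factor gene Cpsf2, was at 34.0 and 15.8 (wild type) against 25.4 and 34.5 CPM (cKO). Gm15612, inside Podxl2, was at 26.9 and 12.9 against 23.0 and 28.1 CPM. Gm17201, inside Ankrd52, was at 24.3 and 18.2 against 25.5 and 26.7 CPM. In the first 2 of these wild type replicate 1 lay between the cKO libraries, and in Gm17201 both cKO libraries were above both wild-type ones. Gm17201 had the highest level per kilobase, 60.6 CPM, on a short annotated exonic length of 390 bases of which 59.5% is shared with coding exons.

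**Figure D2:**
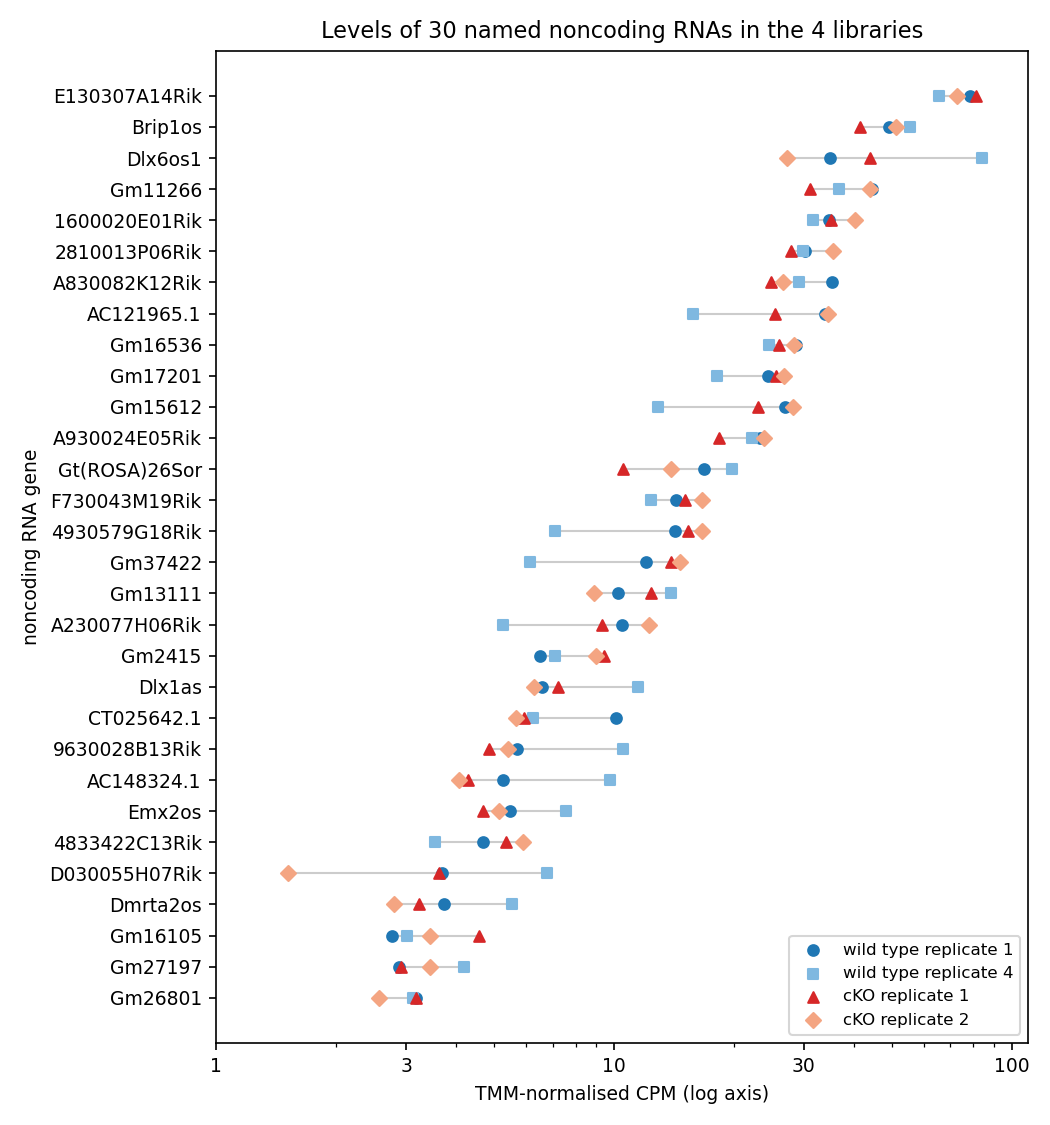
TMM-normalised CPM (log axis) of the 30 genes named by rule in each of the 4 libraries, with a grey line from the lowest to the highest library. Wild type replicate 4, the pale square, is at an end of the line in many rows, for example at 84.0 CPM for Dlx6os1 and 15.8 CPM for AC121965.1.

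Between the groups, 0 of the 116 passed 5% FDR in edgeR's quasi-likelihood test, where 0% of the 16269 genes tested passed. The smallest adjusted p among the 116 was 0.956. At an unadjusted p below 0.05 there was 1 lower gene and 0 higher, against backgrounds of 0.996% and 0.676%, and of 1.67% in either direction. DESeq2 gave 2 at that level (background 2.02%) and 0 after adjustment. At the thresholds of the series, an unadjusted p below 0.05 and a change over 2-fold, there were 0 (background 0.541%). Of the fitted log2 fold changes 62 were above 0 (background 48.1%) and 54 below (background 51.9%). The median was 0.019 for the 116 and -0.013 for all genes tested. Among the 9256 genes in the range of levels of the 116, 3976 were above 0 and the median was -0.042. Both cKO libraries were on the same side of both wild-type libraries in 36 genes, or 31.0%, against 31.6% of all genes tested. In 18 of them cKO was higher (background 13.0% of the genes in the same range of levels) and in 18 lower (background 18.5%). By library totals in place of TMM the count was 35 (background 32.1%). These shares are near the background. The standard errors ran from 0.15 to 0.67 on the log2 scale with a median of 0.31. In 69 genes the 95% interval lay within 1 of 0, so a 2-fold change was outside the interval, and in the rest the precision did not reach that far.

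The gene with an unadjusted p below 0.05 was Gt(ROSA)26Sor (ENSMUSG00000086429, chromosome 6, 113067428 to 113077333, minus strand), the ubiquitously transcribed noncoding gene at the Rosa26 locus, where transgenes and reporter cassettes are often inserted. It was at 16.8 and 19.8 (wild type) against 10.5 and 13.9 CPM (cKO). Both cKO libraries were below both wild-type libraries. The means were 18.3 ± 2.13 CPM (SD, n = 2) and 12.2 ± 2.42 CPM (SD, n = 2). The log2 fold change came to -0.59 (SE 0.23, 95% interval -1.15 to -0.026, edgeR adjusted p = 0.956, unadjusted p = 0.0428). Leaving out each library in turn gave -0.80 to -0.40. Its overlapping partner Thumpd3 was at 19.996 and 23.0 against 23.3 and 22.4 CPM, so that its groups overlapped. Whether these embryos carry an insertion at Rosa26 was not given in the sources used here. In bulk tissue, fewer cells of a type and less RNA per cell cannot be told apart, here and below.

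Among other genes with lower values in cKO, AC148324.1 starts 146 bp from Gphn, which encodes the inhibitory synapse scaffold gephyrin, and was at 5.24 and 9.74 (wild type) against 4.30 and 4.08 CPM (cKO). Its log2 fold change was -0.84 (SE 0.37), and -0.32 without wild type replicate 4, while Gphn was at 41.9 and 39.0 against 42.5 and 40.0 CPM. D030055H07Rik, antisense to the glycerate kinase gene Glyctk, was at 3.69 and 6.79 against 3.63 and 1.51 CPM, a log2 fold change of -1.02 (SE 0.52). That value was -0.53 without cKO replicate 2, -1.78 without cKO replicate 1 and -0.51 without wild type replicate 4. 9630028B13Rik, convergent with the tRNA synthetase gene Eprs, was at 5.70 and 10.5 against 4.86 and 5.42 CPM, and its log2 fold change of -0.66 (SE 0.36) was -0.15 without wild type replicate 4. In all 3 both cKO libraries lay below both wild-type ones, and the distance to wild type replicate 4 was the larger. In a fit without wild type replicate 1 the log2 fold changes were -1.21 for AC148324.1, -1.39 for D030055H07Rik and -1.03 for 9630028B13Rik.

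Among the higher genes, Gm37422, antisense to the lysine methyltransferase gene Smyd2, was at 12.04 and 6.14 (wild type) against 13.9 and 14.7 CPM (cKO) (log2 fold change 0.65, SE 0.34). 4930579G18Rik, antisense to the splicing factor gene Acin1, was at 14.2 and 7.09 against 15.3 and 16.7 CPM (0.58, SE 0.34). Both had groups that did not overlap, and wild type replicate 4 was the lowest library. The same held for their partners. Smyd2 was at 27.5 and 19.0 against 30.9 and 29.5 CPM (0.38, SE 0.22). Acin1 was at 385 and 380 against 414 and 414 CPM (0.11, SE 0.11). Reads of RNA and partner cannot be told apart in these pairs. Without wild type replicate 4 the log2 fold changes of the 2 noncoding RNAs were 0.25 and 0.17. Without wild type replicate 1 they were 1.22 and 1.18, and both were called (edgeR adjusted p = 0.0123 and 0.0116). Gm2415 differed, since its wild-type libraries were close together: 6.51 and 7.09 CPM against 9.44 and 9.03 CPM in cKO. Its means were 6.80 ± 0.406 CPM (SD, n = 2) and 9.24 ± 0.290 CPM (SD, n = 2), and its log2 fold change was 0.44 (SE 0.24, 95% interval -0.15 to 1.03, edgeR adjusted p = 0.956). Leaving out each library gave 0.39 to 0.51. It starts 2 bp from Ctdspl, a phosphatase gene, which was at 23.6 and 23.9 against 24.2 and 22.2 CPM.

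A230077H06Rik, across the start of Vstm2b, was at 10.5 and 5.26 (wild type) against 9.33 and 12.2 CPM (cKO), with overlapping groups (0.45 on the log2 scale, SE 0.37). That value was 0.045 without wild type replicate 4 and 1.04 without wild type replicate 1, where it was called (edgeR adjusted p = 0.0496). Vstm2b itself was at 30.5 and 24.0 (wild type) against 34.9 and 36.3 CPM (cKO) (0.39, SE 0.18), without overlap of the groups. Reads of A230077H06Rik and Vstm2b cannot be told apart here. 4833422C13Rik is antisense to Ssbp2, whose product binds single-stranded DNA. It was at 4.67 and 3.54 (wild type) against 5.36 and 5.88 CPM (cKO) (0.45, SE 0.30). Gm16105, inside the RNA-binding protein gene Celf5, was at 2.77 and 3.01 against 4.58 and 3.44 CPM (0.47, SE 0.33), and 77.9% of its exonic bases are shared with coding exons. F730043M19Rik, head to head with Atxn7l1, was at 14.3 and 12.4 against 15.1 and 16.6 CPM (0.25, SE 0.20). In the last 3 both cKO libraries were above both wild-type libraries, by differences that did not pass the test. Leaving out each library gave 0.27 to 0.67 for 4833422C13Rik, 0.25 to 0.66 for Gm16105 and 0.15 to 0.36 for F730043M19Rik. Their partners Ssbp2 and Celf5 had fitted log2 fold changes of 0.33 and 0.28, and Atxn7l1 had -0.20.

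Among the 116, 9 had a partner in the list of developmental transcription factors. The fitted log2 fold change was below 0 in all 9 (background 51.9% of all genes tested), with 0 passing the test. Without wild type replicate 4 it was below 0 in 5 of the 9. In the fit of all 4 libraries, 3976 of the 9256 genes in the same range of levels were above 0. The noncoding RNA was highest in wild type replicate 4 in 6 of the 9, against 43.1% of genes in the same range of levels. In 5 of the 9 pairs RNA and partner were both highest in wild type replicate 4, the library in which dividing-cell markers were also highest. Dmrta2os starts 240 bp from Dmrta2, a patterning factor of the medial cortex. It was at 3.75 and 5.55 (wild type) against 3.24 and 2.80 CPM (cKO) (log2 fold change -0.62, SE 0.35), and Dmrta2 was at 21.4 and 53.0 against 20.7 and 16.8 CPM (-0.99, SE 0.41). Emx2os starts 263 bp from Emx2, which patterns the dorsal telencephalon. It was at 5.47 and 7.56 against 4.69 and 5.13 CPM (-0.41, SE 0.30), and Emx2 was at 28.2 and 47.4 against 25.5 and 25.8 CPM (-0.56, SE 0.26). In both pairs each gene was lower in both cKO libraries than in both wild-type libraries, and without wild type replicate 4 the noncoding RNAs were at -0.30 and -0.15.

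At the Dlx loci, which mark interneurons and their progenitors, noncoding RNA and partner did not always share an order of libraries. Dlx6os1 (chromosome 6, 6820189 to 6871592, minus strand) overlaps Dlx6, a homeobox gene of ventral forebrain, and shares no exonic base with a coding exon in the annotation. It was at 35.0 and 84.0 (wild type) against 44.1 and 27.2 CPM (cKO). Dlx6 was at 23.9 and 20.1 against 23.7 and 15.6 CPM, so the library that was highest for the antisense RNA was not highest for Dlx6. The neighbouring Dlx5 was at 45.9 and 77.3 against 70.3 and 39.0 CPM, and Dlx2 at 74.9 and 197 against 130 and 67.3 CPM. Both followed the order of Dlx6os1: wild type replicate 4, cKO replicate 1, wild type replicate 1, cKO replicate 2. The summed ventral markers, which include these coding Dlx genes, had the same order. Dlx1as was at 6.57 and 11.5 against 7.21 and 6.29 CPM, and its partner Dlx1 at 314 and 469 against 392 and 258 CPM. The groups overlapped in all 6 of these genes. The log2 fold change of Dlx1as was -0.42 (SE 0.33), and 0.045 without wild type replicate 4. Dlx6os1 had a log2 fold change of -0.74 (SE 0.43, edgeR adjusted p = 0.956), -1.23 without wild type replicate 1 (called, edgeR adjusted p = 0.00311) and 0.031 without wild type replicate 4. DESeq2 gave Dlx6os1 an unadjusted p of 0.0410.

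At the Nr2f1 locus 2 noncoding RNAs and the coding gene each had lower values in both cKO libraries than in both wild-type libraries. None passed the test. The background for this order was 15.7% of all genes tested and 18.5% of genes in the range of levels of the 116. Nr2f1 encodes the nuclear receptor COUP-TFI, which patterns cortical areas. A830082K12Rik (chromosome 13, 78198017 to 78279391, plus strand) overlaps the start of Nr2f1 by 1741 bp and was at 35.3 and 29.2 (wild type) against 24.7 and 26.6 CPM (cKO). CT025642.1 (chromosome 13, 78123379 to 78183168, minus strand) starts 5805 bp from the other end of Nr2f1, overlaps Fam172a and was at 10.1 and 6.26 against 5.92 and 5.65 CPM. Fam172a, its partner, was also lower in both cKO libraries, at 48.1 and 50.8 against 37.3 and 44.6 CPM (log2 fold change -0.27, SE 0.16). Reads of CT025642.1 and Fam172a cannot be told apart here, nor can those of A830082K12Rik and Nr2f1 where these overlap. Nr2f1 was at 197 and 224 against 153 and 160 CPM. The log2 fold changes were -0.33 (SE 0.18) for A830082K12Rik, -0.50 (SE 0.32) for CT025642.1 and -0.43 (SE 0.13) for Nr2f1, each with edgeR adjusted p = 0.956. The differences of the noncoding RNAs were larger without wild type replicate 4, at -0.45 and -0.80, and smaller without wild type replicate 1, at -0.18 and -0.11. The grouping of these 3 genes by locus was made after their values were seen.

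In the remaining transcription factor pairs the noncoding RNAs differed by less than their errors. Gm27197, inside the cortical selector gene Lhx2, was at 2.88 and 4.19 (wild type) against 2.90 and 3.44 CPM (cKO). Gm13111, head to head with Prdm16, was at 10.2 and 13.9 against 12.4 and 8.91 CPM. Gm26801, head to head with the neuronal repressor gene Zbtb18, was at 3.17 and 3.13 against 3.18 and 2.56 CPM. The groups overlapped in Gm27197 and Gm13111, and in Gm26801 cKO replicate 1 was level with wild type. Their log2 fold changes were -0.16 (SE 0.35), -0.17 (SE 0.28) and -0.13 (SE 0.33). Without wild type replicate 4 they were 0.14, 0.069 and -0.13, and that of Gm11266 was -0.24. The coding genes were at -0.33 (SE 0.21) for Lhx2, -0.39 (SE 0.27) for Prdm16 and 0.16 (SE 0.20) for Zbtb18.

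**Figure D3:**
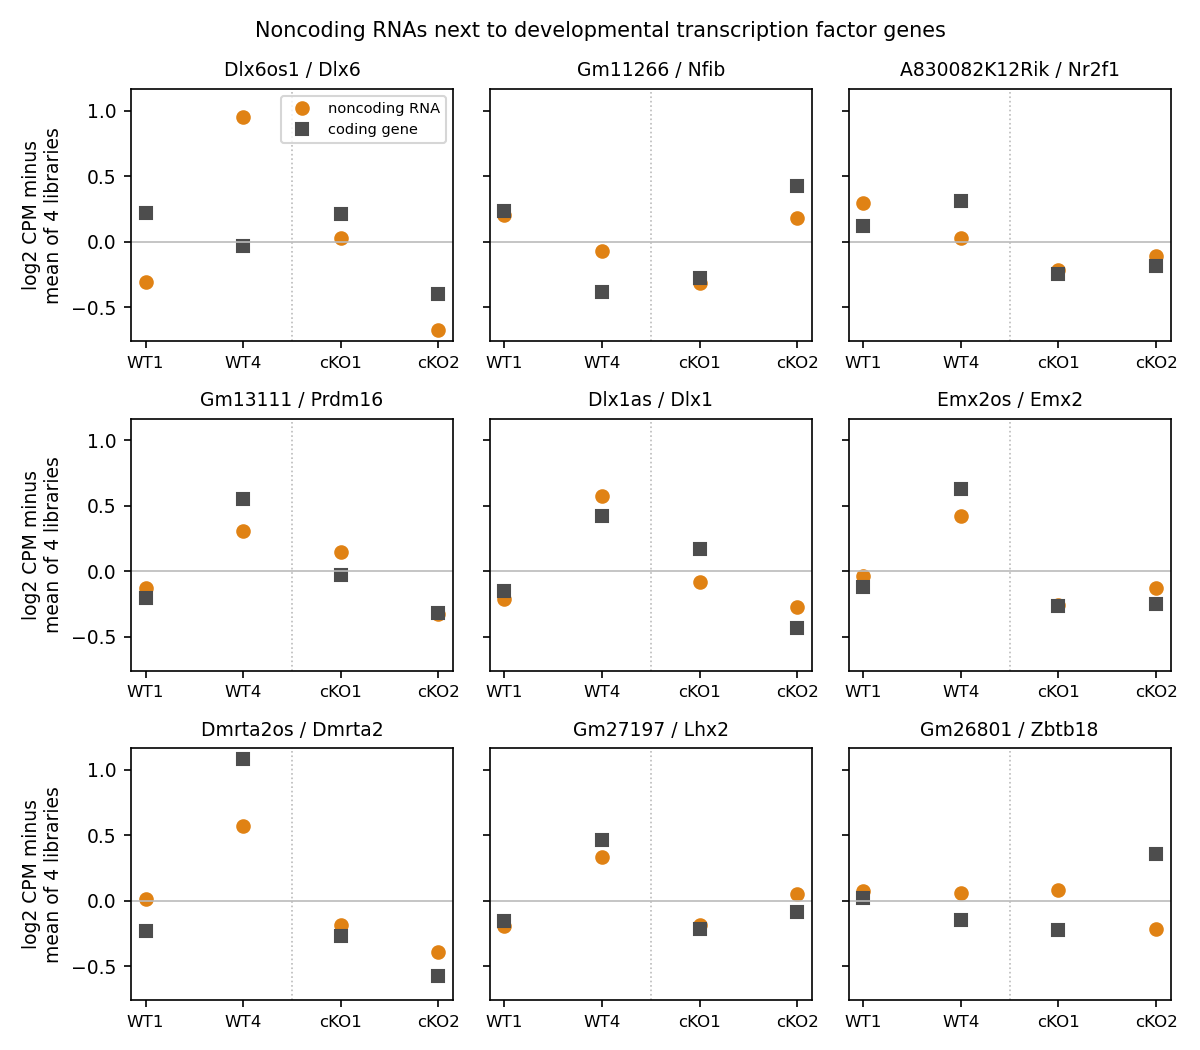
For the 9 noncoding RNAs next to developmental transcription factor genes, log2 CPM of the noncoding RNA (circles) and of the coding gene (squares) in each library, minus the gene's mean over the 4 libraries. In 5 panels both symbols are highest in wild type replicate 4 (WT4), and in the Dlx6os1 panel the noncoding RNA alone is highest there.

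The fitted differences of noncoding RNA and partner were compared pair by pair, as a description. Over 64 overlapping pairs with starts over 1 kb apart, the fitted log2 fold changes of RNA and partner had a Pearson r of 0.51 and a Spearman rho of 0.56. Over the 44 head-to-head pairs r was 0.15 and rho 0.07. The pairs share all 4 libraries, and overlapping genes can share reads, so no p is given and the difference between both sets was not tested. The overlapping set includes Brip1os, paired with Ints2 although it also starts close to Brip1. It also includes 1700052K11Rik and 2900093K20Rik, whose promoter windows share 193 and 200 bases with those of Tlk2 and Oser1, their partners. Among 41 RNAs that share no exonic base with a coding exon, r was 0.39. It was 0.24 over 28 pairs with up to 10% shared and 0.47 over 45 pairs with over 10% shared. These sets were not split by the arrangement of starts. The signs of RNA and partner were the same in 43 of the 64 overlapping pairs and in 22 of the 44 head-to-head pairs.

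**Figure D4:**
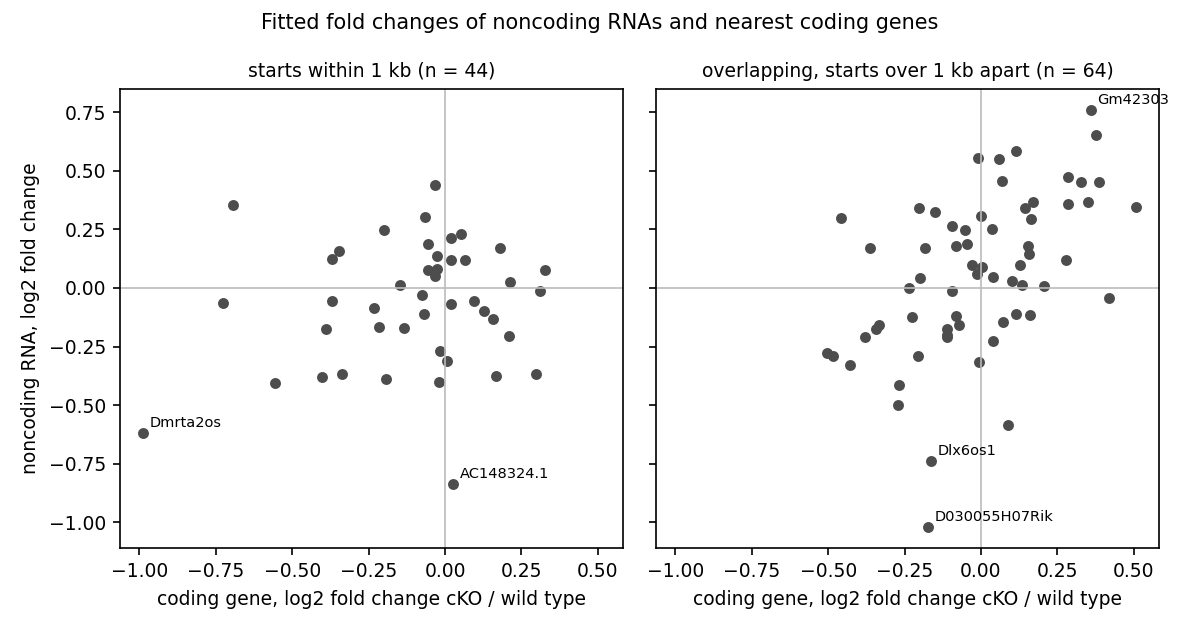
Fitted log2 fold change (cKO over wild type) of each noncoding RNA against that of its nearest coding gene, for head-to-head pairs (left, n = 44) and overlapping pairs with starts over 1 kb apart (right, n = 64). The right panel shows a rising cloud (r = 0.51) and the left panel hardly any (r = 0.15).

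Within the head-to-head set several RNAs were steady across all 4 libraries. 2610306M01Rik, which starts 77 bp from the kinase gene Aak1, was at 8.82, 9.03, 8.77 and 9.73 CPM, in the order given above. A130014A01Rik, 100 bp from the palmitoyltransferase gene Zdhhc7, was at 4.67, 4.66, 4.30 and 4.84 CPM. These had the narrowest spreads of the 116. CT030173.1 starts 192 bp from the condensin gene Ncapg2 and was at 2.36, 5.20, 4.36 and 2.85 CPM, while Ncapg2 was at 14.6, 25.0, 12.8 and 11.1 CPM. There cKO replicate 1 was high for the RNA and not for the coding gene. Some partners encode variant histones or place H2A.Z. 1700008J07Rik starts 886 bp from Srcap, which encodes the remodeller that places H2A.Z, and was at 4.38, 2.95, 3.74 and 4.25 CPM, with Srcap at 2.07, 1.89, 2.07 and 0.99 CPM. H3f3aos, head to head with the histone H3.3 gene H3f3a, was at 4.78, 3.42, 3.91 and 3.20 CPM. AC164426.2, antisense to the macroH2A gene H2afy, was at 8.41, 7.20, 6.65 and 9.44 CPM. The groups overlapped in all 3 of these RNAs. The genes of this paragraph were chosen after their values were seen.

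The order of the libraries over the 116 was also compared with that over other genes, as a description. The lowest of the 4 libraries was wild type replicate 4 in 54 genes, or 46.6%, against 33.1% of the 9256 genes tested in the same range of levels. It was the highest in 26, or 22.4%, against 43.1%. The median log2 deviation from a gene's own mean was -0.13 in wild type replicate 4 over the 116, and 0.094, -0.0063 and 0.059 in wild type replicate 1 and cKO replicates 1 and 2. Over all genes in that range of levels it was 0.037, 0.0033, -0.012 and -0.011 in the same order. Among overlapping RNAs with distant starts wild type replicate 4 was the lowest in 36 of 66, or 54.5%, and among head-to-head RNAs in 14 of 44, or 31.8%. Nuclear noncoding RNAs that served as a sign of nuclear or unspliced RNA (Malat1, Neat1, Meg3, Miat, Rian and Mirg) summed to 3516 and 2701 (wild type) against 3735 and 2883 CPM (cKO). Their part in the pattern was not tested.

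**Figure D5:**
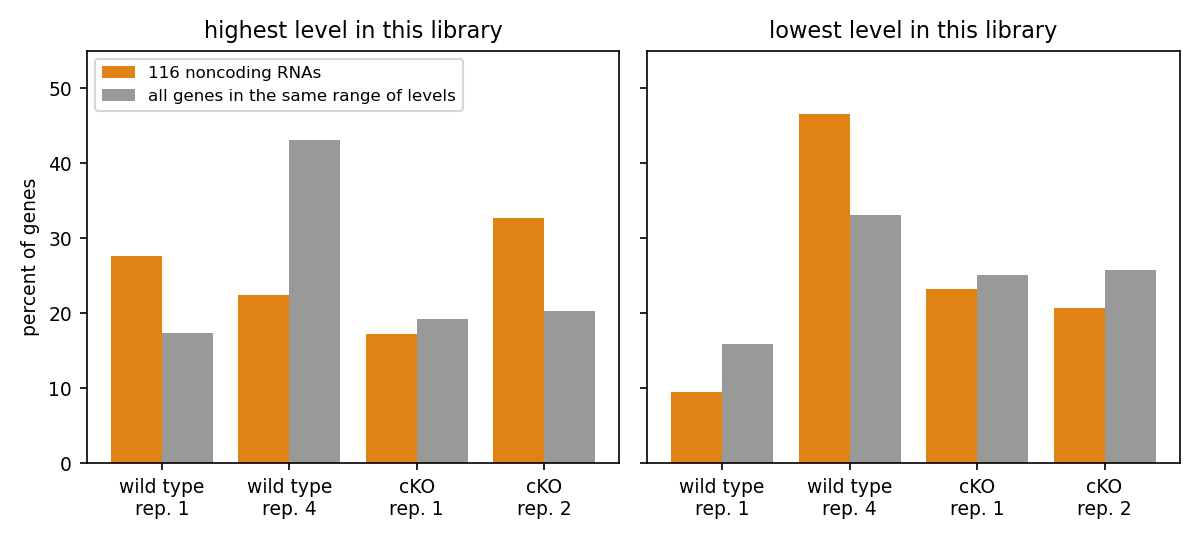
Percent of genes with their highest (left) or lowest (right) level in each library, for the 116 noncoding RNAs and for all 9256 genes tested in the same range of levels. Wild type replicate 4 is lowest for 46.6% of the noncoding RNAs against 33.1% of all genes, and highest for 22.4% against 43.1%.

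Against wild type replicate 1 alone, wild type replicate 4 differed by more than 2-fold in 11 of the 116, whereas cKO replicate 1 did so in 0 and cKO replicate 2 in 1. The share for wild type replicate 4 was 9.48%, against 9.14% of all genes tested and 6.44% of genes in the same range of levels. For cKO replicates 1 and 2 the shares in that range were 0.627% and 0.573%, so that 0 and 1 of the 116 are near them. Of the 11, 8 were lower and 3 higher. Gm42303, inside the receptor phosphatase gene Ptprd, was at 6.34 and 1.54 (wild type) against 4.64 and 8.74 CPM (cKO). Gm12120, inside the potassium channel regulator gene Kcnip1, was at 4.21 and 0.886 against 3.13 and 4.37 CPM, or 73, 15, 56 and 75 reads. B230334C09Rik, antisense to Lrrc40, was at 5.99 and 14.3 against 11.1 and 7.46 CPM. In these 3, chosen after their values were seen, wild type replicate 4 was at the end of the range, and the cKO libraries lay on both sides of wild type replicate 1 in Gm42303 and Gm12120.

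The authors' deposited table that pairs cKO replicate 1 with wild type replicate 4 gives 6 of the 116 a log2 fold change above 1 (background 5.44%) and 2 one below -1 (background 4.19%). In the authors' deposited table that pairs cKO replicate 2 with wild type replicate 1, 0 were above 1 (background 1.10%) and 1 was below -1 (background 2.72%). Each is a difference between 1 library and 1 library with no replicate check. Without wild type replicate 1 the edgeR test called 10 of the 116, 7 higher (background 5.34%) and 3 lower (background 5.59%), against 10.9% of all genes in either direction. That fit sets a lone wild-type library, replicate 4, against both cKO libraries and assumes that it varies as they do. At an unadjusted p below 0.05 that fit gave 22 (background 25.6%), and a fit of all libraries with the deposited table as a block gave 7 (background 5.65%). Without wild type replicate 4 edgeR called 0 and gave 2 at that level (background 1.48%). That share is near the background. These 2 were A830082K12Rik, which overlaps the start of Nr2f1, and CT025642.1, which overlaps Fam172a, with log2 fold changes of -0.45 and -0.80.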

How the data were processed

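RNA-seq of 4 libraries was used. The submitters' processing notes name the build mm9, HTSeq 0.6.0, TopHat2 2.0.12 and Bowtie2 2.2.3. Gene positions in the tables, however, match GRCm38: 91.5% of 19805 genes equal GENCODE M21. The authors deposited 2 tables, each of 1 cKO and 1 wild-type library, with raw read counts per gene, CPM values and a log2 fold change, per the file headers. The deposited CPM equalled count over 1 fixed total per library (84496 values above 0, tolerance 1e-06 CPM). That total lay slightly above the sum of the listed counts, which is the library total used here. A blank line stood in each table, and that item is not reported here.

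Python 3.11.15 joined the counts on gene identifiers. The test was that of edgeR 4.0.16 under R 4.3.3 (TMM, quasi-likelihood, filterByExpr with a count minimum of 10, two-sided, Benjamini-Hochberg over 16269 genes, 2 residual degrees of freedom). The printed adjusted p-values are from this fit unless DESeq2 1.42.0 is named. All 116 genes passed the filter. CPM in the text is TMM-normalised, except mean levels used to choose members and levels per kilobase, which use library totals and GENCODE M21 exon lengths. The partner is the coding row at the least distance, on ties that of the opposite strand with the nearer start. Differences between single libraries use log2(CPM + 0.1). The script was tested on simulated data. Members and lists were chosen with earlier results of these data known. The rule named the 12 most abundant genes, the 8 each way with the smallest p, those beside listed transcription factors, 3 on each side of the level limit, and partners. With 2 libraries a group, precision is limited by their number as well as by 15 to 1456 reads a gene.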

Additional observations from a re-analysis of the deposited data

How the results depend on the processing

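No paired analysis was possible because, as replicate numbers go, wild type (1 and 4) and cKO (1 and 2) share a single number. The deposited tables set cKO replicate 1 beside wild type replicate 4 and cKO replicate 2 beside wild type replicate 1, and the table was fitted as a block, although no label says that it pairs samples. The count of the 116 genes past 5% FDR, like that of all genes, was 0 with DESeq2, RLE size factors, no filter, a mean of 1 CPM and the deposited table as a block. Leaving out a library gave 0 to 10 of the 116 and 0 to 1849 of all genes, the highest values without wild type replicate 1. The count at an unadjusted p below 0.05, 1 as reported, was 2 with DESeq2, 7 with the deposited table as a block, 0 at the thresholds of the series and 0 to 22 when a library was left out. The median log2 fold change of 0.019 ran from -0.076 to 0.13 when a library was left out, and was -0.0050 and 0.036 at level limits of 1 and 5 CPM. The count of genes without overlap was 35 instead of 36 by library totals. Of the fitted log2 fold changes of the 30 named genes, 150 values under the other settings kept their direction. Leaving out libraries turned the direction in 15 values. Their ranges were -0.020 to 0.24 for E130307A14Rik, -1.23 to 0.031 for Dlx6os1, -0.38 to 0.11 for Gm11266, -0.11 to 0.24 for 2810013P06Rik, -0.18 to 0.92 for AC121965.1 and -0.072 to 0.15 for Gm16536. They were -0.069 to 0.99 for Gm15612, -0.31 to 0.065 for A930024E05Rik, -0.43 to 0.069 for Gm13111, -0.76 to 0.045 for Dlx1as, -0.40 to 0.14 for Gm27197 and -0.30 to 0.016 for Gm26801. Over all 116, 52 kept 1 sign in all 4 such fits. The cause was not tested. A fit without a library has a lone sample in 1 group, assumed to vary like the rest.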
